A study of Mus musculus with 16 samples.

Results

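The 10 genes described here encode proteins that place and make the DNA double-strand breaks of meiosis: Spo11, Gm960 (Top6bl in newer names), Mei1, Mei4, Rec114, Ccdc36 (Iho1 in newer names), Ankrd31, Prdm9, Zcwpw1 and Hells. They were chosen as a group by their known roles, with earlier results of these data known, and were found by Ensembl gene ID among the 55414 genes of the deposited tables. RNA came from whole mouse testis at postnatal day 14 (P14) or 16 (P16), and the series asks what the RNA helicase YTHDC2 does in spermatocytes. At each stage there were 2 libraries of mice labelled control and 3 of mice with a conditional knockout of Ythdc2 (cKO), with 2 libraries labelled Cre control at P14 and 4 at P16. Mice of all 3 labels had received tamoxifen, given as 10 mg/ml, on P12 and P13. Tamoxifen is commonly used to switch on an inducible Cre recombinase. The labels name neither the Cre line, its promoter or target cells, nor the alleles that the control and Cre control mice carried. The deposited columns are headed WT for control libraries and Ctrl for Cre control libraries. Whether control mice carried Cre is not stated, so against them Cre and loss of Ythdc2 cannot be told apart. The labels also do not say whether libraries of a group came from separate animals, so p-values measure the spread between these libraries. Whole testis holds somatic cells besides germ cells, and fewer cells of a type and less RNA per cell cannot be told apart in such RNA.

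Meiotic recombination starts with programmed breaks. SPO11, together with its partner TOPOVIBL (the product of Gm960), cuts the DNA. REC114, MEI4 and IHO1 assemble with MEI1 and ANKRD31 on the chromosome axes and are needed for that cut. In mice, PRDM9 binds DNA through its zinc fingers and methylates nearby histones, which sets where breaks fall. HELLS is a chromatin remodeller that works with PRDM9, and ZCWPW1 reads the histone marks PRDM9 leaves and helps repair of the breaks. These proteins act in leptotene and zygotene, early stages of meiotic prophase that many germ cells of the juvenile testis pass through.

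Upstream sequences were available for 9 of the 10 genes (RefSeq, GRCm38.p6). Because the genes fell together at P16, 250 bases upstream of each start site were searched on both strands for 5 short motifs of factors active in germ cells or dividing cells. CNCCTCAG (reported for STRA8, the inducer of meiosis) was in Prdm9 and in 6.42% of all 32851 such windows. CACGTG (an E-box) was in Rec114 and in 6.02% of windows. TTCCCGC (E2F) was in Hells and Prdm9 and in 3.82% of windows, TAACNG (MYB) in Gm960 and Mei4 and in 19.8%, and TGACGTCA (CRE) in none of the 9 and in 1.55%. Counted over 27025 genes, the motifs were in 7.39%, 6.86%, 4.38%, 22.3% and 1.77%, in the same order. No motif was held by more than 2 of the 9 genes. The 120 bases before the start site are printed for the 3 genes with a STRA8, E2F or E-box match in that stretch and for Mei1, the gene that fell most and held none of the 5 motifs; capitals mark the matches. In Prdm9 (chr17:15564355-15564474, minus strand) the E2F match began 47 bases upstream of this start site and the STRA8 match 41 bases upstream. They share 1 base. The other Prdm9 window (chr17:15563332-15563451, minus strand) held none of the 5 motifs. The E-box of Rec114 (chr9:58741560-58741679, minus strand) began 19 bases upstream, and the E2F match of Hells (chr19:38930870-38930989, plus strand) 61 bases upstream. The Mei1 window is chr15:82082356-82082475, plus strand. A match describes letters only, and these coordinates are not those of the build GRCm39 that the submitters' processing notes name.
Prdm9: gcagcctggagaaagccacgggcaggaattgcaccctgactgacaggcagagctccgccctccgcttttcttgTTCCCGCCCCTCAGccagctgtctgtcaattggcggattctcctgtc
Hells: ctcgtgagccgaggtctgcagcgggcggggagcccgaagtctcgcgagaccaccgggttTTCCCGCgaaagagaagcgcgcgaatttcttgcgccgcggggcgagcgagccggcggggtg
Rec114: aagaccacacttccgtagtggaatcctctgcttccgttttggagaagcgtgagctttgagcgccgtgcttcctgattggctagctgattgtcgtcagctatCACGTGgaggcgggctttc
Mei1: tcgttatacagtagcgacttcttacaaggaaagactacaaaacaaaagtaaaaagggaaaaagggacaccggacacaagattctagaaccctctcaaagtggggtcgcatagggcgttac

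The libraries were made with either of 2 kits for removing ribosomal RNA, per the labels' protocols. The first kit, used for controls and for cKO libraries 1 and 2, gave libraries with 22220565 to 27531529 reads on genes. The second kit, used for Cre controls and cKO library 3, gave 14494867 to 23200252. Members had 33 reads (Mei4) to 7532 reads (Hells) in a library, which gives a counting error of at most 17.4% for Mei4 and 10.1% for any other member. Values below are those deposited, that is, reads over the library's size factor. Ythdc2 itself was at 2666 and 2609 in P16 controls and 502 and 541 in cKO libraries of that kit. At P14 its values were 2027 and 2262 in controls against 658 and 753 in cKO. With the second kit the cKO library had 23.0% (P14) and 12.3% (P16) of the mean of the Cre controls. Markers of germ cells and of Sertoli, Leydig, peritubular, endothelial and macrophage cells were detected in every group, apart from the Leydig marker Insl3. Insl3 had no read in any P16 cKO library, in any P16 Cre control library or in P14 cKO library 3.

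In control testes the 10 genes were already transcribed at P14 and, summed, stayed level to P16 with the first kit. Their summed CPM (reads scaled to a fixed total of gene reads per library) was 757 to 763 in the P14 controls and 759 to 764 in the P16 controls. In the first-kit cKO libraries the sum was 665 to 705 at P14 and 388 to 402 at P16, below every control library at each stage. With the second kit the sum was 592 to 593 in the Cre controls at P14 and 428 to 507 at P16, and 548 and 364 in the cKO library. The plot of CPM by library shows each gene.

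**Figure D1:**
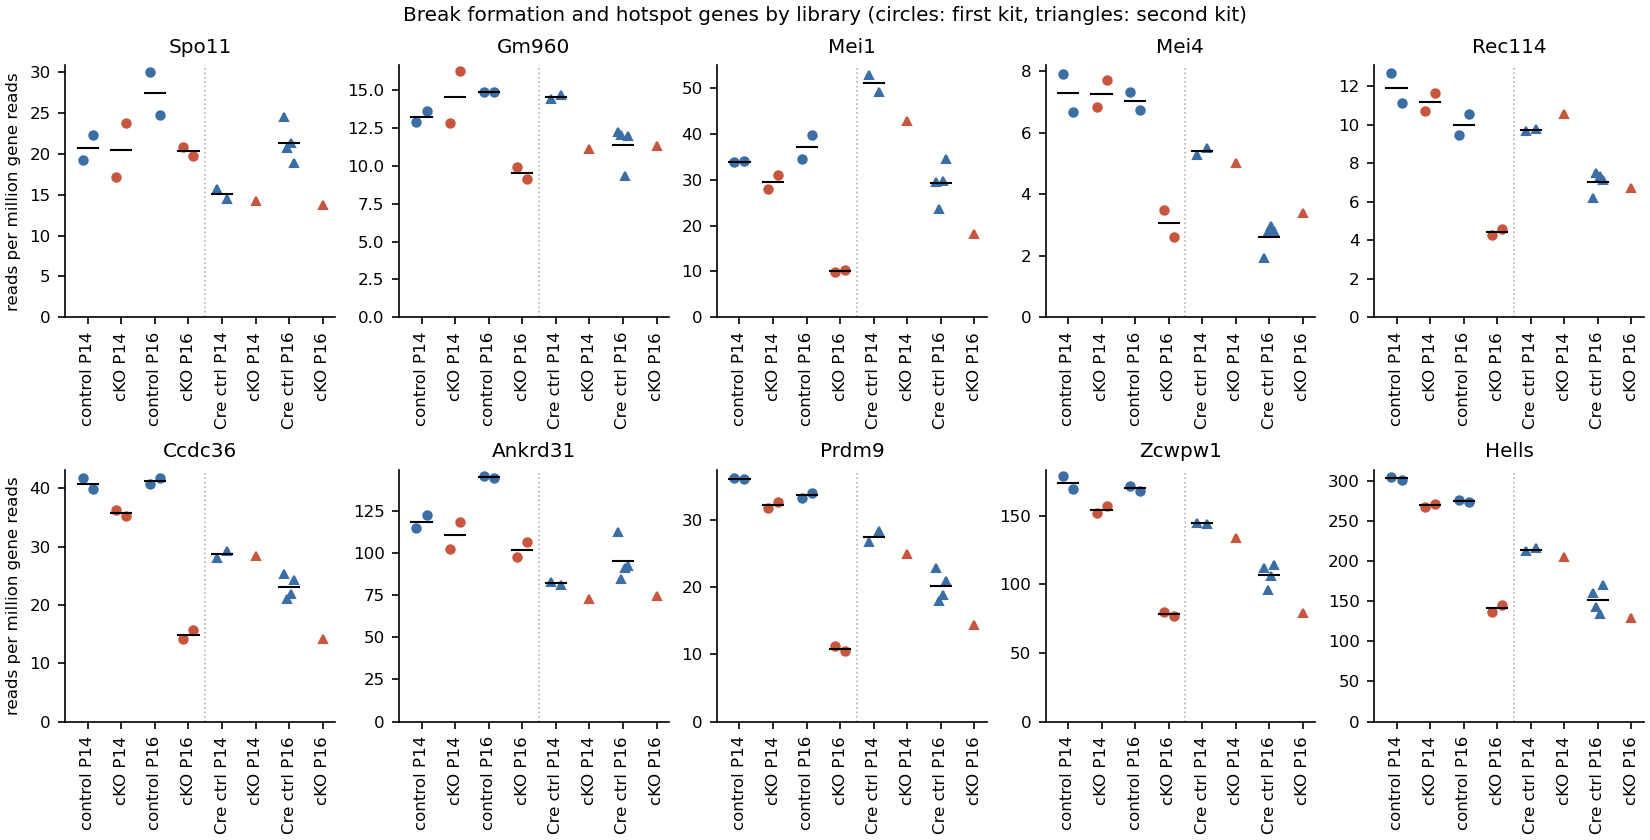
CPM of gene reads (linear axes from 0) of each gene in every library, first kit left of the dotted line and second kit right of it, with blue for control or Cre control, red for cKO and black bars for means of 2 or 4 libraries. In every panel the 2 first-kit cKO libraries at P16 lie below both P16 controls, while the third cKO library lies below all 4 Cre controls at P16 for 7 of the 10 genes.

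Per kilobase of exon in the P16 controls, levels ran from 38.2 RPKM for Hells, 29.9 for Zcwpw1, 23.4 for Ankrd31 and 14.3 for Ccdc36 down to 4.02 for Gm960 and 1.71 for Mei4. In between, Mei1 (7.84), Rec114 (7.82) and Prdm9 (7.81) had overlapping libraries and cannot be ordered, and Spo11 stood at 6.99. The order differed in the first-kit cKO libraries at P16. There Ankrd31 (16.4 RPKM) stood above Zcwpw1 (13.8), Spo11 (5.18) stood level with Ccdc36 (5.16), and Prdm9 (2.51) overlapped Gm960 (2.57), with Mei1 (2.15) and Mei4 (0.742) below them. Mei1 and Prdm9 thus moved from the level of Rec114 to below it (3.48), in values of 2 libraries per group.

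The main question, whether loss of Ythdc2 changed these genes at P16, was asked within the first kit (limma on log2 of the deposited value plus 1, Benjamini-Hochberg over 17986 genes, with an adjusted p under 0.05 termed called). All 10 genes fell in cKO testes, the largest fall being that of Mei1, Prdm9 and Ccdc36 and the smallest that of Spo11. Of all genes tested, 38.6% were called, 19.9% lower. The median log2 change was -1.13 over the 10 genes and -0.00 over all genes. In each of the 10, both cKO libraries lay below both controls, which held for 35.4% of all genes. Adjusted p ranged from 6.8e-09 to 0.0026 in limma, and 6 genes fell by more than 1 on the log2 scale.

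The 2 genes of the cutting complex were among the 3 with the smallest falls. Spo11, the cutting subunit, had values of 779 and 645 in controls against 544 and 516 in cKO testes. The controls of Spo11 differ from each other by more than the lower control differs from either cKO library, though the groups do not overlap. Its log2 change was -0.42 (SE 0.089, limma, adjusted p = 0.0026), and 74.5% of the control mean remained. Spo11 was not called without P16 control library 1, the higher one (limma, adjusted p = 0.0531, where the lone control left is assumed to vary like the cKO libraries), or in limma without a mean-variance trend (adjusted p = 0.0970). Gm960, which encodes the other part of the cutting complex, had 386 and 388 in controls against 259 and 238 in cKO testes. The 2 controls of Gm960 nearly coincide, and its log2 change was -0.64 (SE 0.094).

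The genes for the axis-bound factors other than Ankrd31 each fell to a share of 27.5% to 44.6% of the control mean. For Mei1, controls had 896 and 1037 and cKO testes 260 and 271. With 27.5% of the control mean left and a log2 change of -1.86 (SE 0.086), Mei1 fell most of the 10. Ccdc36, which encodes the factor that anchors the others to unsynapsed axes, stood at 1059 and 1089 against 369 and 410. A share of 36.3% remained, and its libraries were tight within each group (log2 change -1.46, SE 0.075). Rec114 was at 245 and 274 in controls against 112 and 120 in cKO testes, and Mei4, its binding partner, at 190 and 176 against 91.2 and 68.4. Both genes are of low level, and 44.6% and 43.6% of their control means remained (log2 changes -1.16, SE 0.12, and -1.20, SE 0.16). Of the exonic bases of Rec114, 26.9% lie opposite exons of Nptn, a gene with 1340 to 2763 reads per library, and the strand setting of the counting is not given in the sources used here, so reads from Nptn may be among those of Rec114.

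Ankrd31, whose product binds REC114 and is needed for breaks on the region shared by the X and Y chromosomes, had the second smallest fall of the 10. Controls had 3787 and 3763 and cKO testes 2544 and 2777, with 70.5% of the control mean left and a log2 change of -0.51 (SE 0.050). The fall of Ankrd31 is small but well outside the spread of its libraries.

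All 3 hotspot genes fell. Prdm9 had 864 and 886 in controls against 292 and 273 in cKO testes. With means of 875 ± 15.7 and 283 ± 13.2 (SD, n = 2 each), 32.3% remained, the second largest fall of the 10 genes (log2 change -1.63, SE 0.077). Zcwpw1 stood at 4468 and 4375 against 2080 and 2015, so that 46.3% remained (log2 change -1.11, SE 0.045). Hells, which is also active in dividing cells, stood at 7171 and 7120 against 3580 and 3784, with 51.5% remaining (log2 change -0.96, SE 0.044). Zcwpw1 and Hells are the members with the most reads per length and have the smallest errors. Of Zcwpw1's exonic bases, 8.21% lie opposite Pilra, which had at most 3 reads in a library.

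At P14 the same comparison called none of the 10 genes in limma. It called 0.00579% of 17270 genes tested, and no member was called by edgeR or DESeq2 either. At an unadjusted p under 0.05, 5 of the 10 genes and 2.37% of all genes passed in limma. The median log2 change was -0.15 over the 10 genes and 0.01 over all genes, with 9 of 10 values below 0. Values ranged from -0.22 for Mei1 to 0.11 for Gm960.

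The P14 libraries separate by gene in size of spread. Prdm9 was at 873 and 868 in P14 controls against 772 and 766 in cKO testes, Zcwpw1 at 4315 and 4092 against 3688 and 3700, and Hells at 7361 and 7257 against 6488 and 6371. These hotspot genes do not overlap between the groups, and neither do Mei1 (818 and 818 against 682 and 726) and Ccdc36 (1007 and 959 against 882 and 827). For these 5 genes 86.0% to 88.3% of the control mean remained. Both cKO libraries lay below both controls for 14.5% of all genes at P14. Spo11, with 464 and 536 in controls against 418 and 557 in cKO testes, overlapped, as did Gm960, Mei4, Rec114 and Ankrd31.

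**Figure D2:**
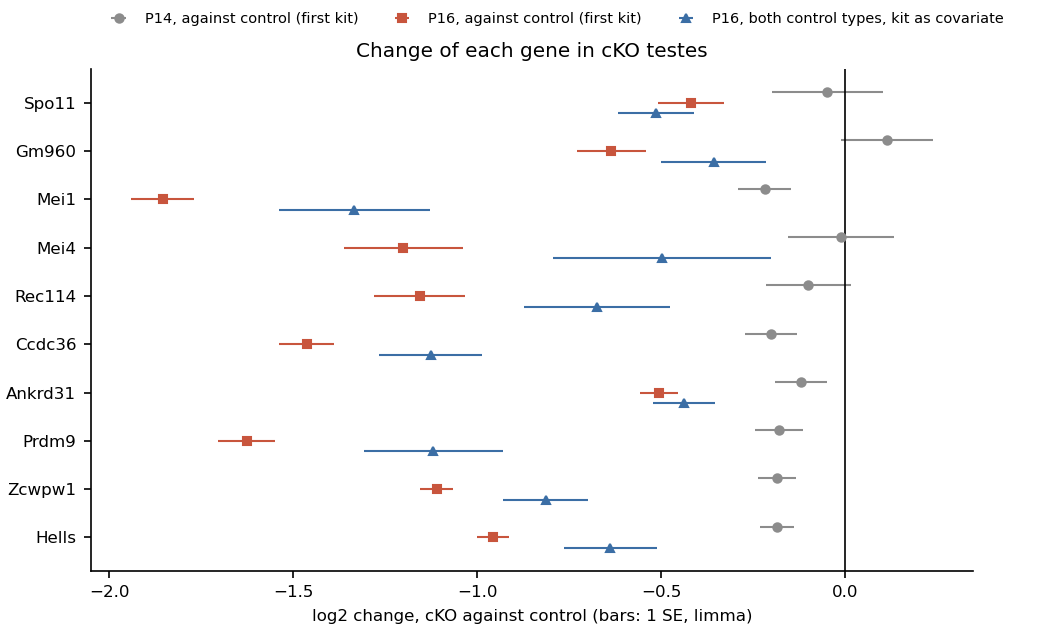
Log2 change of each gene in cKO against control (x axis, bars 1 SE from limma) at P14 and P16 within the first kit, and at P16 over 9 libraries, kit included as a term. At P14 the values lie between -0.22 and 0.11, and at P16 within the first kit between -1.86 and -0.42.

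An interaction term over the 8 first-kit libraries asked whether the knockout effect differed between P14 and P16 (limma on log2 CPM with TMM scaling). All mice received tamoxifen on P12 and P13, so age and time since tamoxifen cannot be told apart in it. For 9 of the 10 genes the P16 effect was called lower than the P14 effect. Over all 18581 genes, 7.39% passed, 4.49% in the lower direction. The difference between the effects was -1.62 for Mei1 (SE 0.12), -1.43 for Prdm9 (SE 0.092) and -1.25 for Ccdc36 (SE 0.11) on the log2 scale, and the remaining 6 called genes ranged from -1.17 for Mei4 to -0.37 for Ankrd31. Spo11 was not called (-0.36, SE 0.20, limma, adjusted p = 0.296). Ankrd31 passed narrowly (limma, adjusted p = 0.0438) and was lost without any of 7 of the 8 libraries in turn. Gm960 was lost without any of 6 libraries, Mei4 without any of 3 and Rec114 without P16 control library 2. Mei1, Ccdc36, Prdm9, Zcwpw1 and Hells were called whichever library was left out, and Spo11 was called without P14 cKO library 1.

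Levels at P16 relative to P14 ranged widely among the 10 genes. In first-kit controls, CPM at P16 was 132% of that at P14 for Spo11, 122% for Ankrd31, 101% for Ccdc36 and 93.2% for Prdm9. In the first-kit cKO libraries it was 99.2% for Spo11 and 92.3% for Ankrd31, whereas it was 34.5% for Mei1, 33.6% for Prdm9 and 41.7% for Ccdc36. Spo11 and Ankrd31, the least affected genes against the P16 controls, therefore stood in the P16 cKO libraries close to their P14 level, and the most affected stood far below it. The change with age in controls was called for 1 gene, Ankrd31, which rose by 0.29 on the log2 scale (SE 0.066, limma, adjusted p = 0.0125) and was lost without P14 control library 1 or either P16 control. Of all genes, 20.0% were called with age, 13.3% higher. Both P16 controls lay below both P14 controls for 3 of the 10 genes and above for 4, against 30.5% and 32.4% of all genes. The rise of Spo11 with age in controls, 0.40 (SE 0.14), was not called in limma (adjusted p = 0.0721).

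Ythdc2 cKO library 3 and the Cre controls give a comparison within the second kit, with 1 cKO library a stage and therefore no test. At P14 all 3 libraries came from 1 sequencing run, but at P16 only Cre control library 1 shared the run of the cKO library, and the other 3 did not. At P16 the third cKO library lay below all 4 Cre controls for 7 of the 10 genes, which 30.0% of 19200 genes did. Set against the other 3 in the same way, Cre controls 1 to 4 were lowest for 2, 5, 2 and 1 of the 10 genes. These counts add up to 10 whatever the data, as each gene has 1 lowest Cre control. They also compare with 3 libraries rather than 4. Against the Cre control of its own run alone, a check chosen after the data were seen, the cKO library was lower for 8 of the 10 genes and 50.3% of all genes, with Rec114 (107%) and Mei4 (174%) higher and the 8 at 55.3% (Ccdc36) to 91.1% (Gm960). Ccdc36 stood at 277 against 416 to 500 in the Cre controls, Mei1 at 355 against 466 to 682, and Spo11 at 269 against 372 to 484. These are 60.3%, 60.9% and 63.3% of the Cre control means. Prdm9 (70.2%), Zcwpw1 (72.4%), Ankrd31 (76.9%) and Hells (83.4%) were also below every Cre control. The 3 others were Rec114 (93.6%) and Gm960 (97.6%), which the Cre controls spanned, and Mei4 (127%), which lay above it. The median log2 difference from the Cre control mean was -0.42 for the cKO library. For each Cre control set against the mean of the other 3, it lay between -0.15 and 0.12.

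Set beside the first kit, Spo11 stood at 63.3% of the Cre control mean in the third cKO library and at 74.5% of the control mean in the other 2. Mei4 stood at 127% and 43.6%, and Rec114 at 93.6% and 44.6%. Whether these genes differ between the kits was not tested. In the third cKO library at P16, summed CPM was 1195 for leptotene and zygotene markers (1278 to 1901 in the Cre controls), 1883 for Sertoli markers (1447 to 1839) and 68.2 for macrophage markers (49.1 to 66.3), and the part of these in its values was not tested. At P14 the third cKO library lay below both Cre controls for 9 of the 10 genes and 33.3% of all 18196 genes. Values there ran from 74.0% of the Cre control mean for Gm960 to 105% for Rec114, the gene that lay above. Summed CPM in that library was 1153 for leptotene and zygotene markers (1385 to 1433 in the Cre controls), 1826 for Sertoli markers (1539 to 1740) and 66.8 for macrophage markers (67.1 to 71.5), and their part was not tested.

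**Figure D3:**
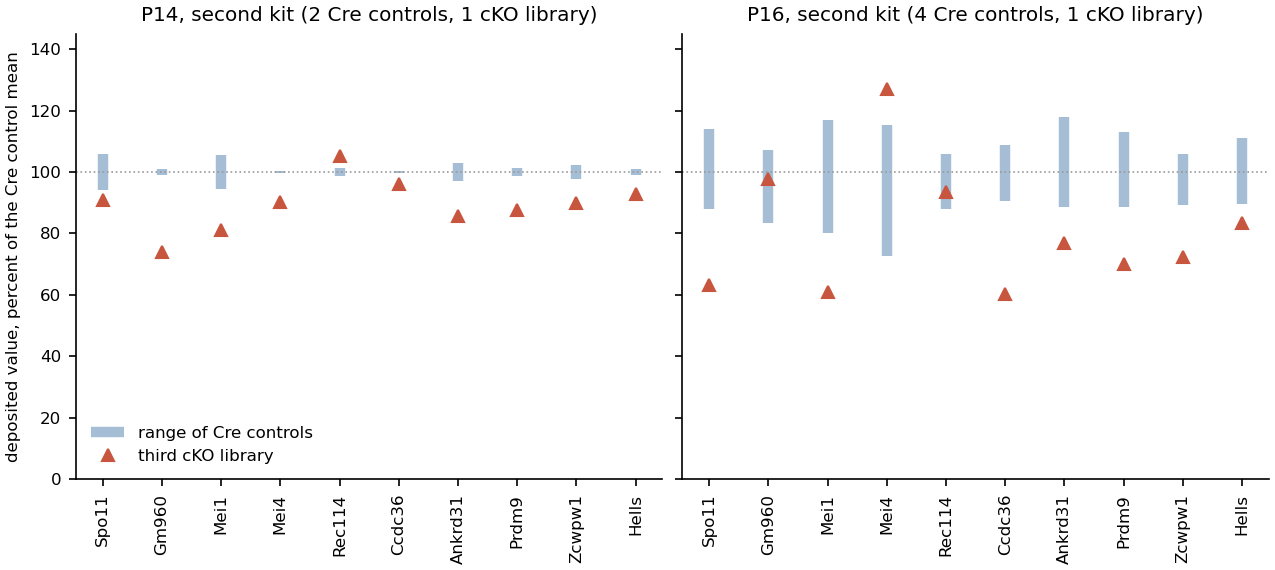
Deposited value of the third cKO library as a percent of the Cre control mean (red triangles) with the lowest and highest Cre control (blue bars), within the second kit at P14 (1 run) and P16 (3 of 4 Cre controls from another run); y axes start at 0. At P16 the cKO library ranges from 60.3% for Ccdc36 to 127% for Mei4.

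Between P14 and P16, 5 of the 10 genes were called in the Cre controls, against 1 in the first-kit controls. Mei1 stood at 49.2 to 52.8 CPM in the Cre controls at P14 and at 23.5 to 34.5 CPM at P16. It fell by 0.80 on the log2 scale (SE 0.15, limma on log2 CPM), and Mei4 (-1.04), Hells (-0.49) and Zcwpw1 (-0.42) were also called lower, while Spo11 was called higher (0.50, SE 0.14, limma, adjusted p = 0.048). Of all 18819 genes, 11.8% were called, 2.75% lower and 9.06% higher. All Cre control P16 libraries lay below both P14 libraries for 8 of the 10 genes and above them for Spo11 and Ankrd31, which 15.3% and 21.1% of all genes did. Part of the P16 Cre controls came from another sequencing run. In the run that holds both stages, with 1 P16 library, none of the 10 was called in limma, against 6.13% of all genes. In that fit the lone P16 library is assumed to vary like the 2 P14 libraries, and a call that is lost there does not show a smaller change. The count was 3 without P16 Cre control library 2 or 3, against 8.21% and 6.07% of all genes. Calls were also lost without P14 Cre control library 1 or 2, where 1 P14 library is left. The difference from the first-kit controls was not tested, and control label, kit and run cannot be told apart in it.

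Compared directly, with the deposited scaling that joins 3 cKO libraries to 4 Cre controls, 4 of the 10 genes were called lower at P16. These were Mei1 (-1.17, SE 0.21), Prdm9 (-0.68, SE 0.13), Ccdc36 (-0.59, SE 0.12) and Zcwpw1 (-0.38, SE 0.087), with adjusted p of 0.0367 to 0.0432 in limma. Of all genes 9.07% were called, 4.77% lower, and 4 members against 16.9% of all genes had every cKO library below every Cre control. Here 2 of 3 cKO libraries differ from the controls in kit. With the kit as a covariate the cKO effect rests on the third cKO library, and none of the 10 and 0.00521% of all genes were called. When any of the 6 libraries other than the third cKO library was left out, no member and 0% of all genes were called. The loss of calls in these fits is therefore not particular to the 10 genes. When the third cKO library was left out, 5 members and 49.5% of all genes were called. At P14 no member was called in limma (0.0% of 18196 genes), nor by edgeR or DESeq2. In limma, 1 member and 3.87% of all genes had an unadjusted p under 0.05. Ythdc2 itself was not called in limma there either (log2 change -1.57). Without the third cKO library, all remaining cKO libraries differ from the Cre controls in kit, and 4 members and 34.9% of all genes were called.

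Both control types enter a fit over the 9 libraries of P16 in which the kit is a term. The fit takes the cKO effect to be the same in both kits, and kit and control label cannot be told apart in it. All 10 log2 changes were below 0 (median -0.66, all genes -0.01), and 8 genes were called lower, against 13.6% of all 19932 genes called and 7.49% called lower. Mei1 (-1.33, SE 0.21), Ccdc36 (-1.13, SE 0.14) and Prdm9 (-1.12, SE 0.19) again had the largest changes. Spo11 (-0.51, SE 0.10) and Ankrd31 (-0.44, SE 0.084) were called too, as were Zcwpw1 (-0.81), Rec114 (-0.67) and Hells (-0.64). Gm960 (-0.36, limma, adjusted p = 0.114) and Mei4 (-0.50, limma, adjusted p = 0.279) were not. The count was 4 without P16 control library 1 (4.44% of all genes). It was 5 without P16 control library 2 (4.25%) or cKO library 1 (3.55%). At P14 the like fit over 7 libraries called none of the 10 and 0.00529% of all genes in limma, and no member was called by edgeR or DESeq2. All 10 values were below 0 there (median -0.16), and 5 members and 2.46% of all genes passed an unadjusted p under 0.05.

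Genes that act with these 10 had smaller median changes at P16 in the first kit, a difference that was not tested. Of 16 regulators and partners of break formation, 14 were called lower and 1 higher, against 19.9% and 18.6% of all genes. Their median log2 change was -0.33. Rad21l, a meiotic cohesin subunit, fell from 1069 and 974 in the controls to 327 and 348 in the cKO libraries (-1.59, SE 0.077). Zcwpw2, a paralogue of Zcwpw1, fell from 329 and 285 to 137 and 147 (-1.11, SE 0.12). The log2 changes of Rad21l and Zcwpw2 lie within the range of the 10 genes, and their groups do not overlap. The log2 changes of the cohesin genes Stag3 and Smc1b were -0.73 and -0.70. Morc2b, which PRDM9-dependent marking is known to switch on, was the gene called higher, with 2244 and 2333 in controls against 2791 and 3344 in cKO testes (0.42, SE 0.070).

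Of 16 genes that process break ends or exchange strands, 12 were called lower and none higher, against 19.9% and 18.6% of all genes. Their median was -0.48. Dmc1, the meiosis-specific recombinase, fell from 2229 and 2206 to 1283 and 1154 (-0.87, SE 0.059), and 54.9% remained. Rbbp8 and Nbn, which start the trimming of break ends, fell by 0.64 and 0.61 on the log2 scale. Meiob, Spata22, Mnd1 and Rpa1 were not called, and Meiob (-0.01) and Rpa1 (-0.04) had log2 changes near 0. At P14 none of these 32 genes was called in limma, which called 1 gene in all (DESeq2 called 6 and edgeR 1). In limma, 3 of the 32, all regulators and partners, and 2.37% of all genes had an unadjusted p under 0.05.

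**Figure D4:**
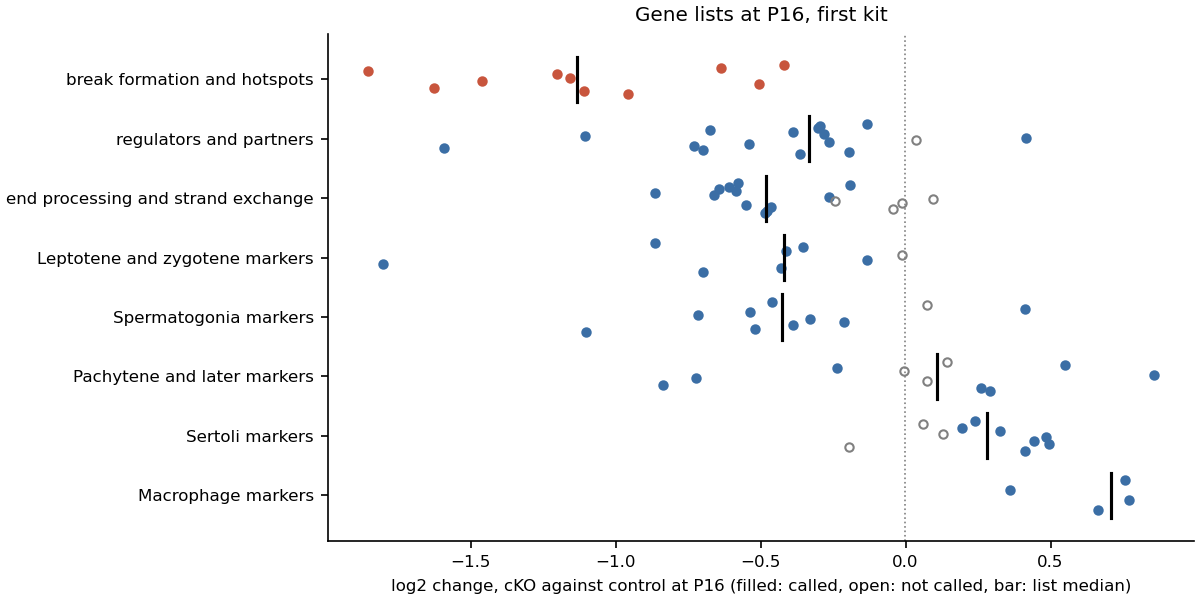
Log2 change in cKO against control at P16 within the first kit (x axis) for each gene of 8 lists, with filled points for called genes, open points for genes not called, black bars for list medians and a dotted line at the median of all genes. The 10 break formation and hotspot genes have a median of -1.13, and the macrophage markers lie on the opposite side of the dotted line. Dmc1, Meiob, Smc1b and Hormad1 are each drawn in a pathway list and among the leptotene and zygotene markers.

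Marker lists of the cell types in the testis moved in the same libraries, and their part in the results was not tested. At P16 in the first kit, 7 of 8 leptotene and zygotene markers were called lower, with summed CPM of 2201 to 2267 in controls and 1577 to 1733 in cKO libraries. This list is not separate from the pathway lists above: Dmc1, Meiob, Smc1b and Hormad1 are in both. Among spermatogonial markers, 8 of 10 were called lower and 1 higher (782 to 790 CPM against 603 to 608). Pachytene markers were mixed, with 3 of 10 called lower and 4 higher, and their sum was 1386 to 1425 CPM in controls and 1430 to 1617 in cKO libraries. Of the somatic lists, 7 of 10 Sertoli markers were called higher (1153 to 1179 CPM against 1333 to 1515) and 4 of 4 macrophage markers (42.5 to 43.0 CPM against 60.5 to 62.6). Of the other lists, 1 of 3 germ cell markers was called lower, and 2 of 5 Leydig, 1 of 4 peritubular and 1 of 3 endothelial markers were called higher, against 18.6% of all genes called higher and 19.9% lower. The summed level of the 10 genes in the P16 cKO libraries was 51.8% of that in controls. Most of that sum is Hells, Zcwpw1 and Ankrd31. For the leptotene and zygotene markers the summed level was 74.1%.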

How the data were processed

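The authors deposited 4 tables, each with the libraries of 1 stage and 1 control type. Per the submitters' processing notes, Trim Galore, STAR, HTSeq and DESeq2 were used on GRCm39, with roles and versions not given in the sources used here. The unit deposited by the authors is a signal: each gene's reads over a size factor of its library. In all 20 columns, which hold 16 libraries, 100% of values were whole reads within 0.01 read, so reads were recovered. The first 2 cKO libraries of each stage are in both tables of that stage and were counted once. The 4 STAR summary rows (53.4% to 63.0% of reads) were left out. Gene IDs were named from GENCODE M21 (52081 of 55414).

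Tests within a table used limma 3.58.1 (R 4.3.3, eBayes with trend) on log2(deposited value + 1), a scale that understates changes of low genes. Tests across tables used log2 CPM of recovered reads (TMM, prior count 1). In limma the spread of a gene was estimated together with that of genes of like level. The SE and p of a gene therefore do not rest on the spread of its own libraries alone. Genes that reached 10 in fewer than 2 libraries were not tested, and all 10 members passed in each comparison. P-values were adjusted over all genes tested. edgeR 4.0.16, DESeq2 1.42.0, other filters, pseudocounts and scalings, a replicate block, a kit term and leaving out each library were alternatives. Scripts were tested on simulated data. Intervals from reads cover counting error only. Members, lists, motifs and tests were chosen with earlier results of these data known. Hormad1 is named only as a gene shared between lists. Named are the 10 members, Ythdc2 and, of each of the 2 other pathway lists, the 4 genes with the largest called change at P16 in the first kit plus any called in the opposite direction (1 gene that the rule picks is not reported here); pathway genes that were not called were named after their values were seen.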

Additional observations from a re-analysis of the deposited data

Results flagged for a closer look

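The effect of the knockout differed between P14 and P16 by an interaction test in limma over the 8 first-kit libraries for 9 of the 10 genes and for Ythdc2. The log2 differences between the effects were -1.62 for Mei1, -1.43 for Prdm9, -1.25 for Ccdc36, -1.17 for Mei4, -1.04 for Rec114, -0.91 for Zcwpw1, -0.76 for Hells, -0.73 for Gm960 and -0.37 for Ankrd31. For Ythdc2 the difference was -0.72, so the target itself stood lower, relative to controls, at P16 (19.8% of the control mean) than at P14 (32.9%).

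Within the 4 P16 Cre controls, the lowest library for Gm960 stood apart. It was library 3, at 189 where the other 3 stood at 236 to 243, and its gap to the nearest was 0.884 of the whole range. Chance alone sets about 1 in 20 such groups apart.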

How the results depend on the processing

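Within the first kit, all 10 genes kept their direction at P16 in all 13 alternatives, and 9 or 10 were called. At P14 none was called in any alternative. In limma without a trend the counts of called members were 5 for the stage difference, 0 and 1 for age in controls and in Cre controls, and 0 for cKO against Cre control at P16; the cause was not tested. For age in controls, a minimum of 50 and DESeq2's size factors each gave 2, against 25.7% and 20.5% of all genes. Age in Cre controls within 1 run rests on 1 P16 library and is described above. With the kit as a covariate, cKO against Cre control at P16 gave 0 members and 0.00521% of all genes. Where a group is left with 1 library, it is assumed to vary like the other groups. Between the fits that leave out a library, counts over all genes moved as well and are given below. Leaving out each library gave 5 to 10 members for the stage difference, 0 to 1 for age in controls, 0 to 5 for age in Cre controls, 0 to 5 against Cre controls at P16, 0 to 4 at P14, and 4 to 9 against both controls at P16.

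Whether the replicate numbers pair the libraries is not stated. Correlations of same-numbered deviations ran from -0.23 to 0.30. At P16, cKO libraries 1 and 3, but not 2, correlated best with the Cre control of their number. With the replicate number as a block, the members called were 2 for age in controls (24.3% of all genes) and 1 for age in Cre controls (8.95%). Against Cre controls they were 0 at P16 (0% of all genes) and 4 at P14 (38.3%). At P14 the block leaves only libraries that differ in kit. Over all genes, against controls at P16, 1806 were called without a trend and 8200 with the block (6939 in the main test). On the recovered reads, edgeR called 6983 and DESeq2 4641. Against Cre controls at P16, 1741 in the main test became 32 without a trend, 1 with the kit, 4188 by DESeq2, 3277 with a pseudocount of 10, 917 with no filter and 0 with the block. For the stage difference, 1373 became 135 without a trend, 727 with no filter and 2228 with the block. For age, 3714 in controls became 2166 without a trend, and 2223 in Cre controls became 903 without a trend and 1059 in 1 run. Against both controls at P16, 2701 became 991 without a trend and 987 with the block. At P14, DESeq2 called 6 genes against controls, 5 against Cre controls and 3 against both, where limma called 1, 0 and 1, edgeR called 1, 0 and 2, and the block gave 5, 6966 and 1. Leaving out each library gave 4591 to 7045 genes against controls at P16, 0 to 11 at P14, 284 to 3199 for the stage difference, 1640 to 2613 and 551 to 2777 for age in controls and Cre controls, 0 to 9427 and 0 to 6256 against Cre controls at P16 and P14, and 700 to 3307 against both at P16. Depth limits Mei4 most.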
